A study of Mus musculus with 6 samples.

Results

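Primary cultures of stromal cells from mouse marrow were set against stromal lines and clones of the same kind of cell. All 6 cultures of the series entered, grouped by the origin given in their descriptions and not by ploidy. The comparison covered 22311 genes, which 25917 named probe sets of 35399 in all represented, and where a gene had several, the brightest on average stood for it. The 3 primary cultures were tetraploid primary I, diploid primary II and diploid primary III. The 3 lines or clones were tetraploid line II, tetraploid clone III, whose tetraploidy is described as artificial, and diploid clone I. Roman numerals are the repeat numbers of the titles. No mouse strain, genotype, age or passage number is given for any culture, and all were grown in the same kind of stem cell medium.

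Mesenchymal stromal cells are the adherent, fibroblast-like cells of the marrow that make matrix, support blood formation and can turn into bone, fat and cartilage cells. In culture, mouse fibroblastic cells usually divide for a limited time and then senesce through the p16Ink4a and Arf products of the Cdkn2a locus, which act on RB and p53. Cells that grow on as a line commonly carry a loss of that locus or of p53, and a clone descends from 1 cell. Each line or clone here is 1 such culture, and tetraploid DNA content occurs in both groups. The labels call the samples biological repeats but do not say which animals they came from or whether any share a founder culture. All p-values below treat the cultures as independent, which the labels do not settle. They refer to the variation among these cultures alone.

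Expression was measured on Affymetrix arrays and deposited as log2 values, which ran from 2.73 to 14.13. A difference below is the mean of the 3 primary cultures minus the mean of the 3 lines and clones on that log2 scale, where 1 is a 2-fold difference, and it is given with its standard error (SE) from limma. The interquartile range of the values was 2.75 in diploid primary III and 3.16 to 3.24 in the other 5 arrays. Diploid primary III also had the highest value of the 6 arrays for 8588 of the 22311 genes. Tetraploid line II was the only array with Y-linked expression: Ddx3y read 9.80 there and 3.88 to 4.23 in the others, and Xist, the RNA of the inactive X chromosome, read 3.68 there and 9.71 to 11.04 in the others. The median of a gene list is also given without diploid primary III or without tetraploid line II, under 1 rule. The rule was a move of over 0.1 that either changed its sign or moved it by over 1.5 times. Medians without another array are given for some lists only.

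The arrays did not group by origin. Distance was taken as 100 times 1 minus the Pearson correlation over all genes, so that 0 is identity. Diploid primary II lay 1.37 from tetraploid clone III and 1.65 from diploid clone I, and those 2 clones lay 1.92 from each other. All other pairs lay 3.71 to 7.75 apart. Whether the 3 close cultures, which span both origins, share a founder is not given in the labels and was not tested. In numbers of genes, 547 differed at least 2-fold between diploid primary II and tetraploid clone III, against 3407 between diploid primary III and diploid clone I. The nearest array was of the same origin for 1 of 6 arrays, tetraploid line II. The mean distance between origins was 4.94 and within origins 5.14, a difference of -0.20 (exact permutation test over the 10 splits of 3 against 3, one-sided p = 0.5, smallest possible 0.1). The same measure by ploidy gave 0.23 (exact permutation test, one-sided p = 0.2). Without tetraploid primary I the value by origin was 0.16, and without diploid primary II it was 0.94, both above 0. It was -0.58 without diploid primary III and -0.53 without tetraploid line II.

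**Figure D1:**
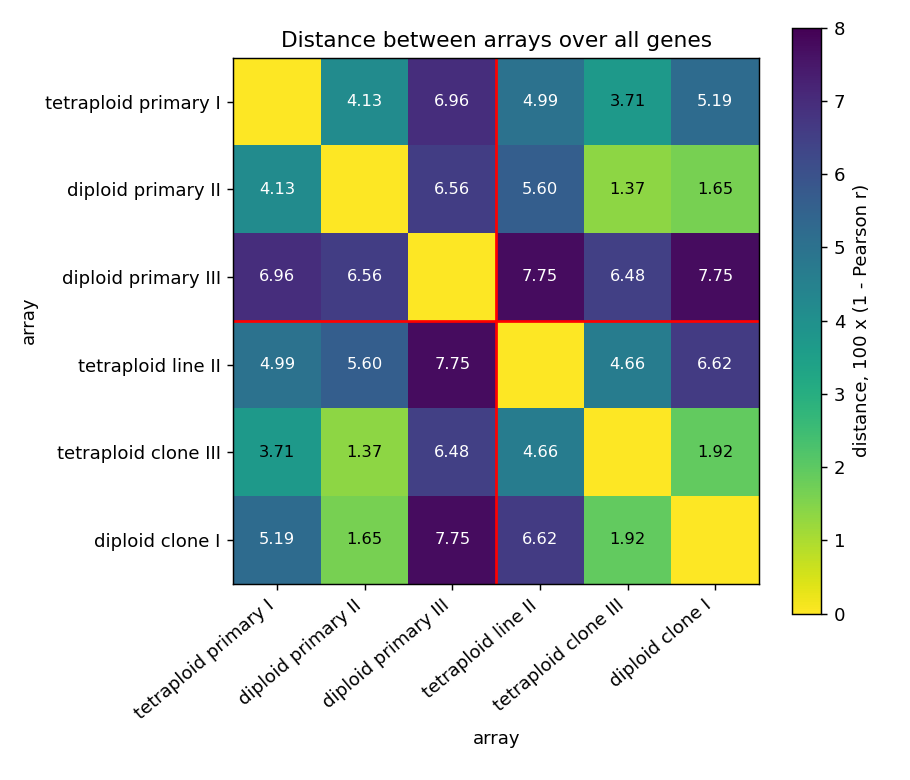
Distance between each pair of arrays, as 100 times 1 minus the Pearson correlation over 22311 genes, with the red lines parting primary cultures (first rows and columns) from lines and clones. Diploid primary II, tetraploid clone III and diploid clone I lie 1.37 to 1.92 apart, and diploid primary III lies 6.48 or more from every other array.

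No gene passed an adjusted p under 0.05 (limma, Benjamini-Hochberg adjustment over all genes): 0 of 22311 genes, or 0%, were called. The smallest adjusted p was 0.216, of Hspb6. At an unadjusted p under 0.05, limma gave 586 genes (2.63%), of which 229 (1.03%) had the higher mean in primary cultures and 357 (1.6%) the lower. Asking also for a 2-fold difference left 124 genes (0.556%), 51 higher (0.229%) and 73 lower (0.327%) in primary cultures. Centring each array on its median changed that split to 30 higher and 86 lower. The 3 primary values did not overlap the 3 line and clone values for 1768 genes (7.92%), 1076 with primary cultures on top (4.82%) and 692 with them below (3.1%). Splitting the same arrays by ploidy gave 1121 genes at an unadjusted p under 0.05 (5.02%), 0 genes past the adjusted threshold by limma (0%) and 2682 genes without overlap (12%). Counts by origin were thus the smaller in each of these measures that was not 0. With independent cultures and no gene differing, a share of about 0.05 of genes would reach an unadjusted p under 0.05 by limma. The share by origin, 2.63%, was below that. Groups of 3 can also part without overlap where no gene differs, so these counts are descriptions only. Since no gene passed the adjusted threshold, the genes below are described by their values. The adjusted p of every gene named below other than Hspb6 was 0.966 or more (limma).

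Among 14 genes that were at least 2-fold higher without overlap at an unadjusted p under 0.01, the 12 of largest difference held membrane, signalling and noncoding RNA genes. Array values are given in a fixed order: tetraploid primary I, diploid primary II and diploid primary III, then tetraploid line II, tetraploid clone III and diploid clone I. Mmp23, a membrane-anchored metalloproteinase, read 8.36, 6.08 and 6.25 against 4.52, 4.42 and 4.40 (difference 2.45, SE 0.63). Its values in the lines and clones lay close together near the low end of the scale, while tetraploid primary I stood above the other primary cultures. Nes, which encodes nestin, an intermediate filament protein of progenitor cells and of perivascular marrow stroma, read 6.47, 6.13 and 8.12 against 4.05, 5.08 and 4.67 (difference 2.30, SE 0.59). Robo1, a receptor for Slit guidance proteins, read 5.61, 4.87 and 5.18 against 4.04, 3.88 and 4.03 (difference 1.23, SE 0.20). The groups did not overlap for either gene, and Robo1 was below the array median in every line and clone.

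Signalling genes of the same group included Sipa1, which encodes a GTPase-activating protein for Rap1, at 7.14, 7.05 and 7.44 against 5.18, 6.13 and 6.34. Fzd8, a Wnt receptor, read 8.38, 8.17 and 9.07 against 7.58, 7.60 and 7.06 (difference 1.13, SE 0.29). Sesn3, a sestrin that acts on nutrient signalling, read 9.32, 9.01 and 8.85 against 7.63, 8.44 and 7.54. The primary cultures lay closer together than the lines and clones for Sipa1 and Sesn3. Serinc2, of the serine incorporator family, differed by 1.54 (SE 0.26), Tmem86a, which encodes a lysoplasmalogenase, by 1.29 (SE 0.25), and the predicted gene Gm8979 by 1.32 (SE 0.31). Small noncoding RNAs completed the group. The vault RNA gene Vaultrc5 read 8.41, 7.70 and 9.69 against 5.76, 6.93 and 5.93, and Rnu3a, a U3 small nucleolar RNA used in ribosomal RNA processing, read 7.56, 7.03 and 8.48 against 6.0, 5.88 and 5.93. U3 RNAs are encoded by near-identical copies, so Rnu3a is uncertain as to copy, and both RNAs were highest in diploid primary III.

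Among 18 genes that were at least 2-fold lower in primary cultures by the same rule, the 12 of largest difference included the gene with the smallest p of the whole comparison. Hspb6 (probe set 10551966, chromosome 7), which encodes a small heat shock protein abundant in muscle, read 7.05, 7.37 and 7.14 in primary cultures and 9.06, 9.0 and 8.91 in lines and clones. Both groups were tight and lay far apart, with a difference of -1.80 (SE 0.12, unadjusted p = 9.7e-06 and adjusted p = 0.216 by limma). The difference was -1.97 among tetraploid and -1.66 among diploid samples. Rgs2 (probe set 10358389, chromosome 1), an inhibitor of Gq-coupled receptor signalling, read 4.23, 7.26 and 4.66 against 8.80, 8.76 and 9.40 (difference -3.60, SE 0.83). Diploid primary II was the closest of the primary cultures to the lines and clones for Rgs2. The same held for Adh7, a retinol-oxidising alcohol dehydrogenase, at 5.02, 6.39 and 4.64 against 8.17, 7.57 and 8.62 (difference -2.77, SE 0.53). Prune2 read 4.54, 5.65 and 4.76 against 8.05, 7.57 and 7.27 (difference -2.65, SE 0.36, unadjusted p = 0.000454 by limma), again with diploid primary II the highest of the primary cultures.

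Genes of membrane traffic formed part of the lower group. Sytl2, an effector of Rab27, differed by -1.87 (SE 0.40), Rab32 by -1.69 (SE 0.38) and Rab30 by -1.68 (SE 0.40), the last of these at 5.10, 6.62 and 5.62 against 7.48, 7.62 and 7.29. Cpeb1, which binds the cytoplasmic polyadenylation element of mRNAs, read 4.35, 5.29 and 5.86 against 7.68, 6.68 and 6.67. Sik1, a salt-inducible kinase, read 6.71, 6.55 and 7.21 against 7.66, 8.69 and 8.46. Hhipl1 differed by -1.99 (SE 0.51), Zbtb10 by -1.36 (SE 0.33) and Arhgap42, a GTPase-activating protein for RhoA, by -1.30 (SE 0.27). Another probe set of Arhgap42 gave -0.44, and those of Prune2 and Gm8979 gave -2.54 and 1.23, close to the values of the probe sets used.

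**Figure D2:**
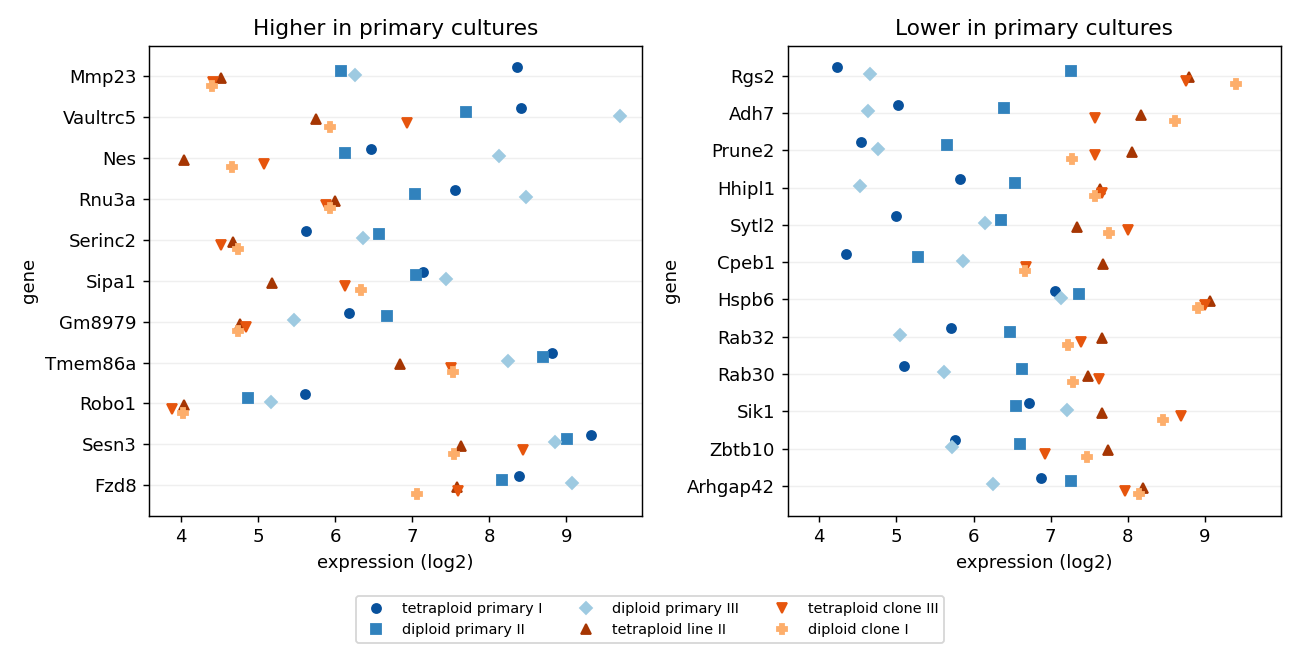
Log2 expression of the genes described as of largest difference in each direction, 1 symbol per array (blue shades for primary cultures, orange shades for lines and clones). The blue and orange symbols do not overlap for any of the genes plotted, as the rule that chose them required, and Hspb6 shows the tightest groups, near 7.2 and 9.0.

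Interferon response genes had the largest median difference of the 36 gene lists. These genes are switched on by type I interferon and their products block virus entry, translation and replication. All 34 measured genes of the list had the higher mean in primary cultures, against 56.8% of all genes. At an unadjusted p under 0.05 by limma stood 2 of them (Oasl2 and Ddx58), and 5 did not overlap between the groups (Ifit1, Oasl2, Bst2, Rtp4 and Zbp1), where 2.63% and 7.92% of all genes did so. The list's median difference was 1.05, against 0.03 over all genes. The list mean read 7.77, 5.33 and 6.19 in primary cultures and 5.22, 5.22 and 5.28 in lines and clones. Tetraploid primary I was the highest array for 29 of the 34 genes, diploid primary III stood between, and diploid primary II was just above the lines and clones. Without tetraploid primary I the median was 0.32, and 29 of 34 genes kept the higher mean in primary cultures.

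Ifit1, whose product binds viral RNA, read 10.13, 4.88 and 6.01 in primary cultures and 3.83, 3.86 and 4.08 in lines and clones. Its groups did not overlap, but tetraploid primary I stood far above the other primary cultures. Oasl2, an oligoadenylate synthetase-like gene, read 9.61, 5.27 and 8.27 against 4.57, 4.72 and 5.06 (difference 2.93, SE 1.10, unadjusted p = 0.0407 by limma). Bst2, which encodes tetherin, read 10.65, 7.95 and 8.89 against 5.64, 7.58 and 7.91, so that diploid primary II was only just above diploid clone I. Usp18, which limits interferon receptor signalling, read 8.78, 3.58 and 7.14 against 3.63, 3.53 and 3.61 and overlapped, since diploid primary II was as low as the lines and clones. Ddx58, which encodes the RNA sensor RIG-I, read 8.61, 7.37 and 8.66 against 7.0, 6.79 and 7.62 (difference 1.08, SE 0.42, unadjusted p = 0.0477 by limma). Irf9, a transcription factor of the pathway, was highest in tetraploid primary I and then in diploid primary III, at 8.65, 5.55 and 7.47 against 4.91, 5.62 and 5.29. Irf7 read 7.44, 3.83 and 5.02 against 3.83, 3.78 and 4.00, near the floor of the scale in 4 of the 6 arrays.

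Promoters of genes named for their test or lack of overlap are shown because the interferon-stimulated response element lies in such regions. Sequences are from RefSeq on GRCm38.p6, from 250 bases before to 50 after the gene's start, 5′ to 3′ on the strand of the gene. Capitals mark matches on either strand to a simplified form of that element, GAAA followed after any 2 bases by GAAA again.
Ifit1, chr19:34640639-34640938, plus strand: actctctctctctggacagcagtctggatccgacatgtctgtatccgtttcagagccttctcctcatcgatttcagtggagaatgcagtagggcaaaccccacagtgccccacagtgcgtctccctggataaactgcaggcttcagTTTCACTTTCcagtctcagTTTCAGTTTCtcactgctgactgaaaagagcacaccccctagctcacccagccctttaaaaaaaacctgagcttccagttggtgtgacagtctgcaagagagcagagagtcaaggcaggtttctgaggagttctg
Oasl2, chr5:114896684-114896983, plus strand: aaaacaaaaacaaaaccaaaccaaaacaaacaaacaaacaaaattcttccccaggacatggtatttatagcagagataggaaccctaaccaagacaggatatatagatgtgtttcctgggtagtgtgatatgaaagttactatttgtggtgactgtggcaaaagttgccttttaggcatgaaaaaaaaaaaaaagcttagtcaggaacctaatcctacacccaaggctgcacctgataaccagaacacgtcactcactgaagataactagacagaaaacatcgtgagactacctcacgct
Bst2, chr8:71537423-71537722, minus strand: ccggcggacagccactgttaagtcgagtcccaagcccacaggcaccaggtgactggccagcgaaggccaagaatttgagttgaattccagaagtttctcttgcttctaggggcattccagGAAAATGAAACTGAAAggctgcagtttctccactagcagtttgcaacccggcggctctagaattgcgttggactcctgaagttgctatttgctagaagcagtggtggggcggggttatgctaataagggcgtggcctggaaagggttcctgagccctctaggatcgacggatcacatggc
Ddx58, chr4:40239776-40240075, minus strand: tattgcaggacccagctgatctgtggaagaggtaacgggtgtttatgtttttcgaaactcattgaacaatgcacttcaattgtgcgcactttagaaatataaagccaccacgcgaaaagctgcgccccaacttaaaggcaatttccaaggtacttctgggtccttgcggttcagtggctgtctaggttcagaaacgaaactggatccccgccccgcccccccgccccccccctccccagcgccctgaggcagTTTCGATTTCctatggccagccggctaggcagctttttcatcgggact
The motif occurred 2 times in the Ifit1 promoter, on the opposite strand, 2 overlapping times in that of Bst2, 1 time in that of Ddx58, on the opposite strand, and was not found in these letters of Oasl2. Of the 34 genes, 24 had a promoter sequence, with 28 promoters between them. Of those 28 promoters 13 held a match, while 1131 of 32851 promoters of all genes did (3.44%). A match is a description of the sequence. Rtp4 and Zbp1 are named only.

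**Figure D3:**
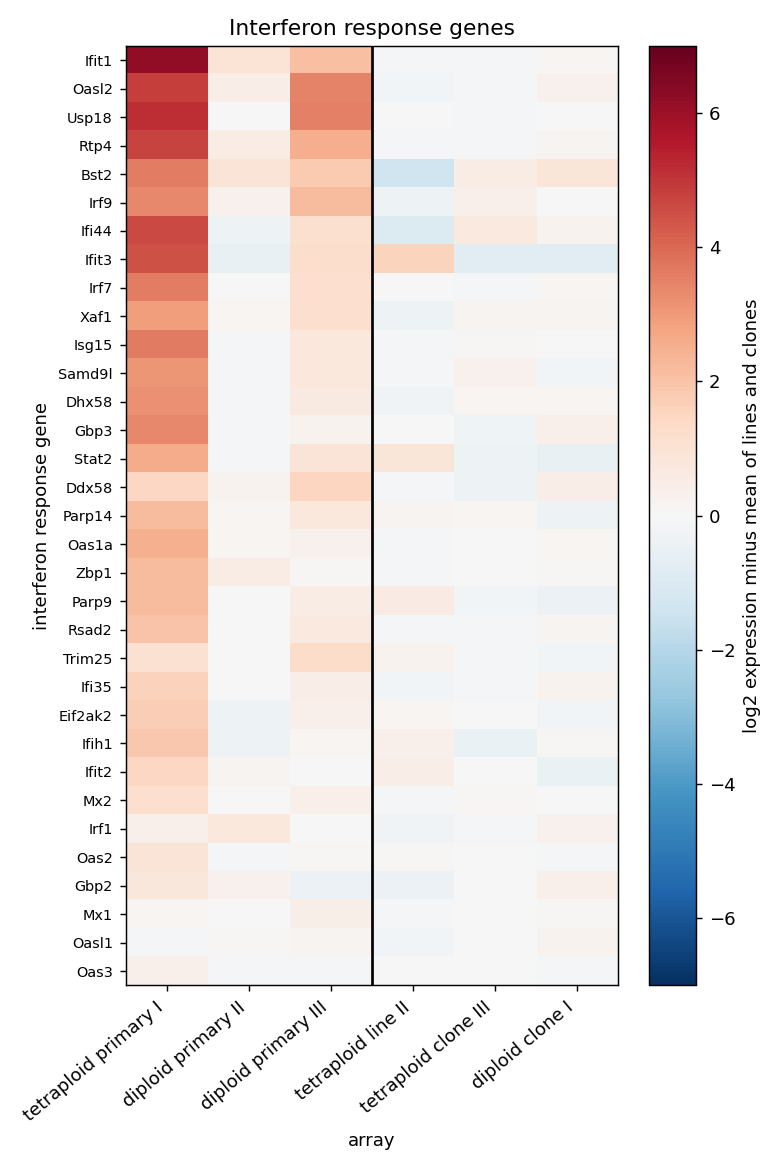
Log2 expression of interferon response genes in each array minus the gene's mean over the 3 lines and clones (red above, blue below), ordered by the difference between origins. Tetraploid primary I is red for nearly the whole list, diploid primary III for its upper part, and diploid primary II resembles the lines and clones.

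Type I interferon genes themselves were mostly near the floor. The interferon zeta gene Ifnz, on chromosome 4, read 4.53, 3.82 and 7.31 against 4.06, 3.90 and 4.00, and its near relatives Gm13290 and Gm13271, which its probes might not tell apart, were also highest in diploid primary III, at 5.94 and 5.14. Ifna4 read 3.72 to 4.07 on all 6 arrays. Genes of MHC class I presentation, many of which interferon also induces, had the higher mean in primary cultures for 16 of 19, with a median of 0.39, 1 gene at an unadjusted p under 0.05 by limma and 3 without overlap, where 2.63% and 7.92% of all genes did so. The median was 0.67 without diploid primary III. Psmb8, a subunit of the immunoproteasome, read 7.29, 7.23 and 6.42 against 5.52, 5.99 and 6.17 (difference 1.08, SE 0.30, unadjusted p = 0.0132 by limma). Tap1, the peptide transporter, read 8.25, 6.67 and 6.68 against 6.06, 6.32 and 5.76. Diploid primary II was not the lowest primary culture for Psmb8, and it held the highest levels of the class I heavy chains H2-K1 (10.85) and H2-D1 (10.25). Probes for class I heavy chains can share sequence between these genes. MHC class II genes were near the floor, with 5 of 10 higher and a median of -0.0033.

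On chromosome 4, Cdkn2b and Mtap separated tetraploid primary I and diploid primary III from the other 4 cultures. The senescence gene Cdkn2a was high in tetraploid primary I alone. Cdkn2a, the gene of p16Ink4a and Arf, read 7.98, 3.92 and 4.49 in primary cultures and 3.84, 3.97 and 3.97 in lines and clones. For Cdkn2a, diploid primary III was below its own array median of 4.73. The neighbouring gene Cdkn2b, which encodes p15Ink4b, read 8.61, 4.42 and 6.26 against 4.32, 4.49 and 4.47 (difference 2.00, SE 1.04, unadjusted p = 0.105 by limma). Mtap, of methionine salvage, lies on the other side of Cdkn2a and read 8.21, 3.90 and 6.34 against 3.73, 3.70 and 3.75. In diploid primary II all 3 genes were thus close to the line and clone values. Klhl9, farther out on the side of Mtap, was also highest in these 2 primary cultures but higher in diploid primary III, at 6.15, 5.30 and 6.87 against 5.34, 4.91 and 5.35. Plaa, on the side of Cdkn2b, was lowest in them, at 8.92, 9.37 and 8.66 against 9.22, 9.25 and 9.44. Mtap and the other neighbours were chosen after their values were seen. A level near the floor cannot tell a deleted gene from a silent one.

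**Figure D4:**
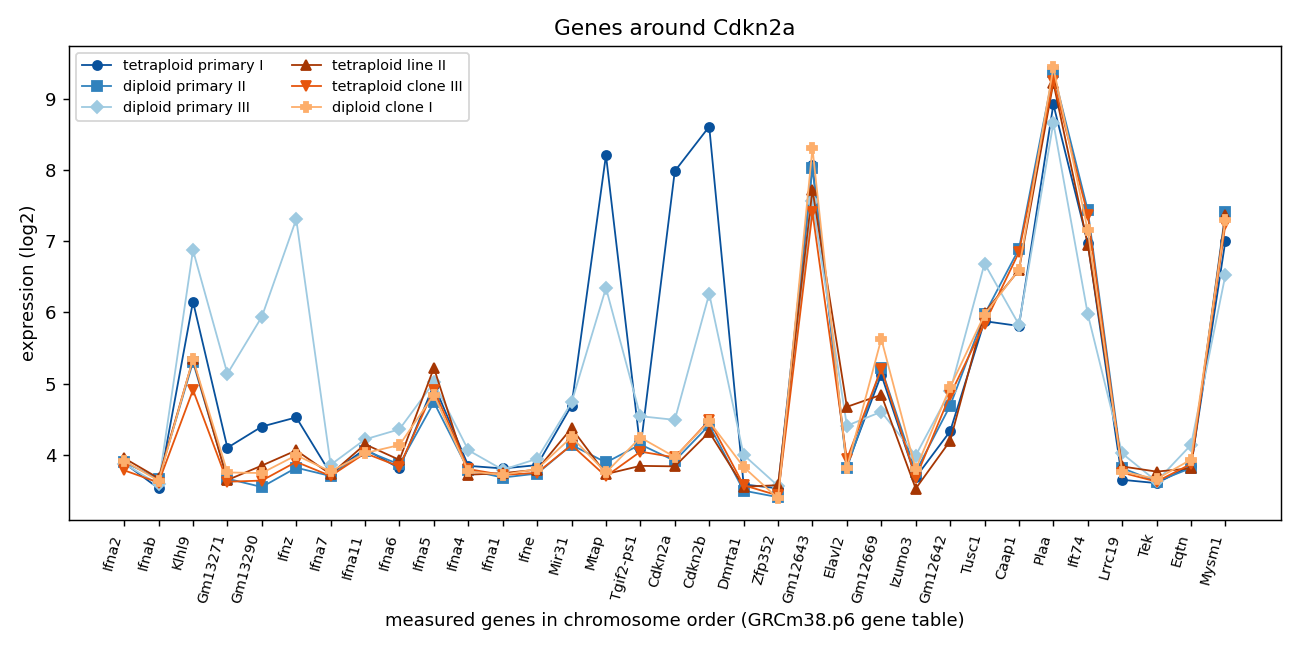
Log2 expression of the measured genes around Cdkn2a in chromosome order, 1 line per array, with lines only joining the points of an array. Mtap, Cdkn2a and Cdkn2b are high in tetraploid primary I, intermediate or low in diploid primary III and near 4 in the other 4 arrays.

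Rb1, Trp53 and Myc, like Cdkn2a and Cdkn2b, did not divide by origin. Over the 34 genes of the RB and ARF axis, 26 had the higher mean in primary cultures and the median was 0.14. At an unadjusted p under 0.05 by limma stood 0 of them, where 2.63% of all genes did so. Rb1 read 7.83, 7.66 and 7.49 against 6.68, 7.54 and 7.64, Trp53 8.25, 8.85 and 8.49 against 7.42, 9.02 and 8.68, and Myc 9.26, 9.71 and 9.71 against 8.40, 9.72 and 10.38. In each of these genes tetraploid line II was the lowest array. Targets of p53 had the higher mean in primary cultures for 24 of 32, with a median of 0.37, but the median was 0.03 without tetraploid line II and 0.07 without tetraploid primary I. Cdkn1a, the p21 inhibitor induced by p53, read 10.06, 9.41 and 9.41 against 6.25, 9.91 and 9.83, so that line II alone was low. Eda2r, a death receptor and p53 target, showed the same at 8.93, 7.04 and 7.26 against 4.45, 7.49 and 7.95, as did Zmat3, at 6.52 in line II and 8.12 to 8.27 elsewhere. Mdm2, the ubiquitin ligase of p53, read 10.96 in tetraploid primary I and 9.03 to 9.80 elsewhere. Gadd45a was the only p53 target at an unadjusted p under 0.05 by limma (2.63% of all genes). It read 7.95, 10.23 and 7.96 against 10.89, 10.11 and 11.24 (difference -2.03, SE 0.71), with overlap.

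Proliferation genes had small median differences by origin. For DNA replication 34 of 45 genes had the higher mean in primary cultures, with a median of 0.22, 2 at an unadjusted p under 0.05 by limma and 4 without overlap, where 2.63% and 7.92% of all genes did so. The median was 0.35 without diploid primary III, 0.06 without tetraploid line II and 0.10 without diploid primary II. Tk1, thymidine kinase, read 6.42, 6.57 and 6.34 against 5.52, 5.77 and 6.18 (difference 0.62, SE 0.19), and its other probe set gave 0.36. Mcm5, of the replicative helicase, read 6.94, 6.87 and 7.04 against 5.76, 6.55 and 6.55 (difference 0.66, SE 0.24). Diploid primary II was the highest array for 21 of the 45 genes. Mitosis and spindle genes had the higher mean in primary cultures for 32 of 50 with a median of 0.15. At an unadjusted p under 0.05 by limma stood 0 of them, where 2.63% of all genes did so. Diploid clone I was the highest array for 37 of these 50, with Ccnb1, a cyclin of mitotic entry, at 9.91 there and 7.34 to 8.97 elsewhere, and without it the median was 0.62. The median was -0.22 without tetraploid line II, -0.03 without diploid primary II and -0.02 without tetraploid clone III. Telomere maintenance genes were higher in primary cultures for 9 of 15, with a median of 0.08 that was -0.11 without diploid primary II. Tert, the telomerase catalytic subunit, read 4.49, 4.92 and 4.15 against 3.75, 4.44 and 4.30.

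The stromal label was checked against markers. Of 26 stromal markers 13 were above the array median in all 6 arrays, among them Pdgfrb (9.07 to 11.38), Itgb1 (11.72 or more), Ly6a, Vcam1 and Cxcl12. By origin the list was even, with 12 higher and 14 lower in primary cultures and a median of -0.05, or -0.16 without diploid primary III. Besides Nes, Kitl, the stem cell factor that marrow stroma offers to blood progenitors, stood at an unadjusted p of 0.0148 (limma), at 5.53, 7.43 and 4.45 against 8.64, 8.72 and 8.07, without overlap. Thy1 did not follow origin, at 10.82, 5.51 and 4.35 against 3.96, 6.29 and 8.56. Eng, the TGF-beta coreceptor endoglin, read 3.80 in tetraploid line II and 8.80 to 10.78 in the other 5 arrays.

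Markers of other cell types were mostly below the array medians. Of 30 myeloid markers 24 were below the median of every array, as were 16 of 25 endothelial, 16 of 20 epithelial, 19 of 20 lymphocyte and 11 of 15 erythroid and megakaryocyte markers. Ptprc, the pan-leukocyte gene, read 3.72 to 4.25, Pecam1 3.51 to 4.18 and Epcam 3.59 to 3.81. Single cultures departed from this: Cdh5, the endothelial cadherin, read 11.03 in diploid primary III and 3.70 to 3.79 elsewhere, and the macrophage gene Cd68 read 7.97 in tetraploid line II and 3.97 to 4.96 elsewhere. List means ranged from 3.92 to 4.27 over primary cultures and 3.97 to 4.30 over lines and clones for myeloid markers, and from 4.14 to 5.09 and 3.90 to 4.39 for endothelial markers. Primary cultures had the higher mean for 20 of 25 endothelial markers, 23 of 30 myeloid, 18 of 20 epithelial, 17 of 20 lymphocyte and 10 of 15 erythroid and megakaryocyte ones. The medians were 0.04 to 0.12. In each of these lists 0 stood at an unadjusted p under 0.05 (limma), where 2.63% of all genes did so. Without diploid primary III the medians of these 5 lists ran from -0.03 to 0.0078. Diploid primary III was the highest array for 17, 20, 13, 13 and 8 of them, in that order. In a culture, fewer cells of a type and less RNA per cell cannot be told apart, and the part of these cells in the results above was not tested.

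Genes of redox defence had the most negative median of the lists. Of 34 NRF2 targets and glutathione genes 26 had the lower mean in primary cultures and 8 the higher, where 56.8% of all genes had the higher, the median was -0.35 and 3 stood at an unadjusted p under 0.05 by limma (2.63% of all genes). In 5 genes the groups did not overlap (7.92% of all genes), 4 with primary cultures below and Gpx2, a glutathione peroxidase, with them above. NRF2 is the transcription factor that switches on detoxifying and glutathione enzymes. Nqo1, a quinone reductase and its classical target, read 4.91, 6.83 and 5.67 against 7.42, 7.46 and 8.67 (difference -2.05, SE 0.60, unadjusted p = 0.0158 by limma). Cat, catalase, read 7.39, 7.91 and 7.94 against 8.57, 8.27 and 8.39 (difference -0.67, SE 0.19). Prdx1, a peroxiredoxin, read 10.37, 10.38 and 10.05 against 11.16, 10.54 and 10.86, and its other probe set gave -0.50 against -0.59. Other targets varied within the groups: Slc7a11, the cystine transporter, read 4.32, 7.24 and 4.86 against 4.21, 7.57 and 9.41, and diploid clone I was the highest array for 12 of the 34 genes. The list's median was negative within tetraploid samples, at -0.44, and within diploid samples, at -0.37. It stayed between -0.49 and -0.23 when any 1 array was left out. Gpx3, an extracellular glutathione peroxidase, went the other way through 1 culture, at 9.17 in tetraploid primary I and 3.57 to 3.84 elsewhere.

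Energy metabolism showed small shifts. Of 40 genes of oxidative phosphorylation 29 had the lower mean in primary cultures, with a median of -0.15 that was -0.03 without diploid primary III and -0.03 after quantile normalisation. Atp5c1, of ATP synthase, stood at an unadjusted p of 0.0252 (limma), at 10.98, 11.17 and 10.92 against 11.35, 11.27 and 11.49. Glycolysis and hypoxia genes had the higher mean for 22 of 34 with a median of 0.12, which was -0.06 without diploid primary III and -0.19 without tetraploid line II. Hk2, hexokinase 2, read 7.50, 8.81 and 9.53 against 10.59, 8.94 and 10.09. Cholesterol synthesis had 14 of 25 higher and a median of 0.01. Its median was 0.57 without tetraploid line II, 0.26 without diploid primary III and 0.34 without diploid primary II. Its list mean was 8.87 in tetraploid primary I and 8.81 in tetraploid line II against 7.08 to 7.19 in the other 4 arrays, which left 1 high culture in each origin. Msmo1, a sterol oxidase of the pathway, read 12.10 and 11.58 in those arrays and 9.04 to 9.53 in the others.

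Among matrix genes, collagens had the lower mean in primary cultures for 19 of 30 with a median of -0.05, which was -0.30 without diploid primary III. Col3a1 stood at an unadjusted p of 0.0256 (limma), at 10.68, 9.77 and 9.20 against 11.87, 11.84 and 10.62, so that only tetraploid primary I reached the level of a line or clone. Glycoproteins and proteoglycans had 24 higher and 28 lower of 52, with a median of -0.08. At an unadjusted p under 0.05 by limma stood 3 of them, where 2.63% of all genes did so. Postn, the matricellular periostin, read 9.28, 10.54 and 8.83 against 10.94, 11.88 and 10.95 (difference -1.71, SE 0.52), and Lama4, a laminin chain of vessel basement membranes, 6.27, 6.98 and 3.96 against 8.07, 9.13 and 7.92 (difference -2.64, SE 0.84). Thbs3, a thrombospondin, had the higher values in primary cultures, at 6.03, 4.91 and 5.79 against 4.28, 4.60 and 4.48. Matrix proteases and inhibitors had 18 of 30 higher with a median of 0.19, which was 0.08 without diploid primary III and 0.30 without tetraploid line II. In 3 of them the groups did not overlap (7.92% of all genes), Mmp23 and Adamts4, an aggrecan-cleaving protease, among them.

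Lineage lists lay close to all genes. Osteoblast genes had 16 of 28 higher with a median of 0.03, adipocyte genes 20 of 30 with 0.06, and chondrocyte genes 13 of 23 with 0.02. Smooth muscle genes had the lower mean for 16 of 25 with a median of -0.13. Tpm2, a tropomyosin, read 8.59, 7.57 and 7.70 against 8.81, 9.79 and 8.73 (unadjusted p = 0.0318 by limma), and Acta2, smooth muscle actin, read 9.34 in diploid primary III and 12.40 to 13.14 elsewhere. The adipocyte and B-cell factor Ebf1 was likewise lowest in diploid primary III, at 3.81 against 6.37 to 8.98. Its other probe set gave an origin difference of -0.65, against -2.25 for the one used. Hox genes had 20 of 39 higher with a median of 0.01, primary cilium genes 11 of 30 with -0.16, germline and cancer-testis genes 16 of 21 with 0.09, and imprinted genes 20 of 37 with 0.02. Without diploid primary III the median was -0.07 for adipocyte, 0.03 for primary cilium and -0.02 for germline genes, and without tetraploid line II it was -0.06 for primary cilium and 0.13 for imprinted genes. H19, an imprinted noncoding RNA, read 3.92, 10.46 and 8.33 against 3.97, 3.75 and 8.36 and so followed ploidy, not origin, on these arrays. After quantile normalisation the small medians of the osteoblast, chondrocyte, Hox, imprinted, stromal, Hippo, chemokine and complement lists changed sign, and lay between -0.06 and 0.11.

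Irs2 and Pappa of the insulin-like growth factor axis separated by origin with little spread. Irs2, an adaptor of the insulin and IGF1 receptors, read 5.49, 5.52 and 5.57 in primary cultures and 4.33, 4.37 and 4.68 in lines and clones (difference 1.07, SE 0.12, unadjusted p = 0.000205 by limma). Pappa, a protease that frees IGF from its binding proteins, read 4.20, 4.42 and 4.64 against 5.15, 5.63 and 5.43 (difference -0.98, SE 0.18, unadjusted p = 0.002 by limma). Irs2 was below the array median in tetraploid line II and tetraploid clone III, and Pappa was below it in every primary culture. As a whole the list was even, with 10 of 20 higher and a median of -0.09. Wnt genes had 32 of 43 higher with a median of 0.08, TGF-beta and BMP genes 23 of 42 with 0.04, and Hippo targets 14 of 28 with -0.02. Secreted factor lists were also close to all genes: chemokines and cytokines had 22 of 37 higher with a median of 0.03, the senescence secretory list 13 of 27 with -0.0063, and complement 12 of 19 with 0.02. Cxcl10, an interferon-induced chemokine, read 4.76, 5.07 and 4.16 against 3.68, 3.71 and 4.15 (unadjusted p = 0.0262 by limma), and Il6 read 3.74, 5.31 and 5.26 against 4.05, 7.54 and 8.78.

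**Figure D5:**
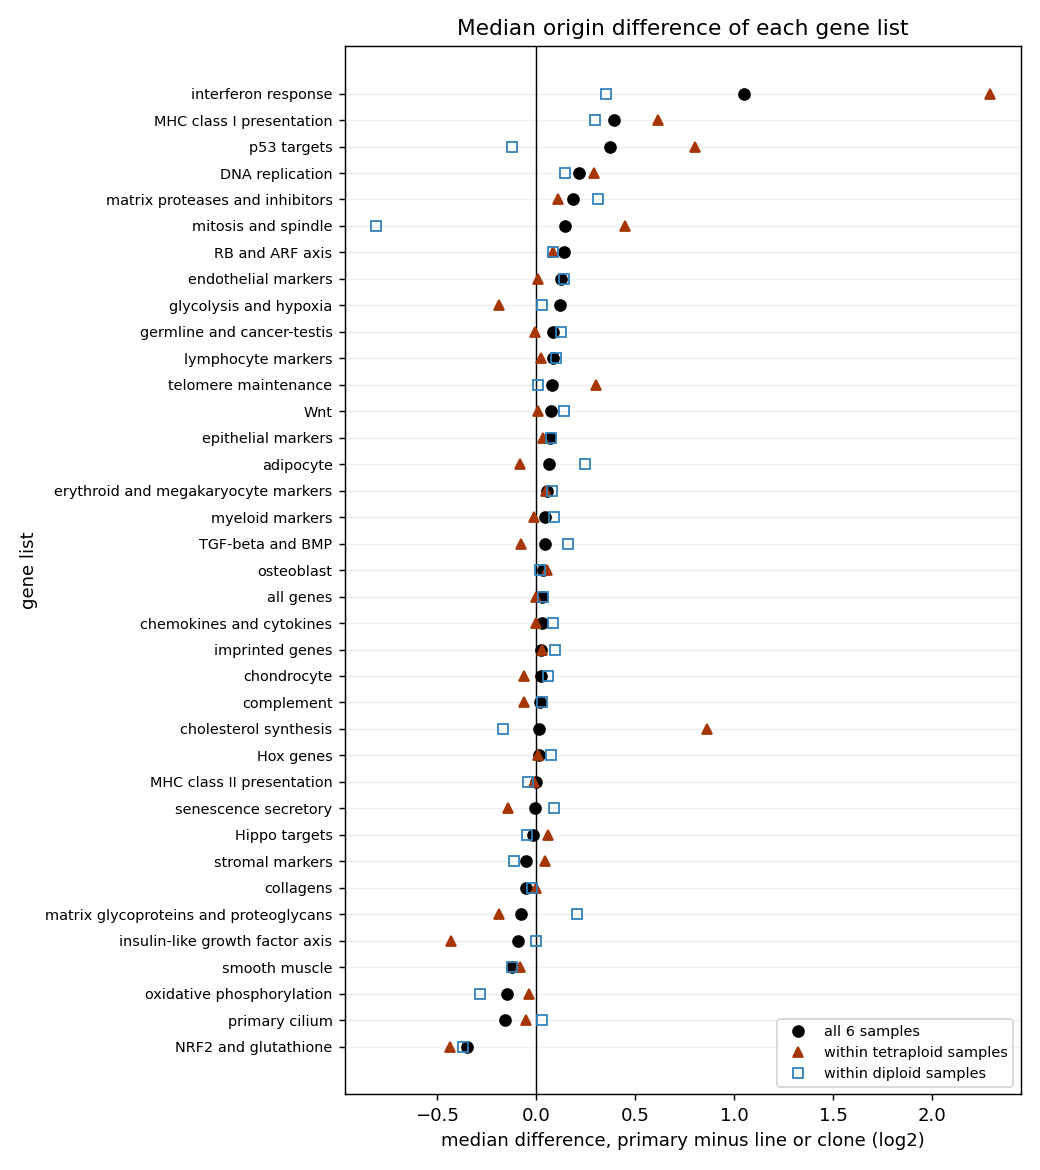
Median difference, primary minus line or clone (log2), of each of the 36 gene lists and of all genes, over all 6 samples (black), within tetraploid samples (triangles) and within diploid samples (squares). Interferon response lies farthest right, at 1.05 over all 6 samples, 2.29 among tetraploid and 0.35 among diploid samples, and NRF2 and glutathione lies farthest left among the black points, at -0.35.

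Within each ploidy, 1 culture of an origin was set against 2 of the other. Among tetraploid samples, primary I minus line II and clone III, limma called 0 genes at an adjusted p under 0.05 (0%) and 784 at an unadjusted p under 0.05 (3.51%). Among diploid samples, primary II and III minus clone I, it called 0 (0%) and 487 (2.18%). The lone sample of each was assumed to vary like the other groups. For the difference between the 2 contrasts limma called 0 genes at an adjusted p under 0.05 (0%) and 633 at an unadjusted p under 0.05 (2.84%), with a smallest adjusted p of 0.718. The interferon list had the higher mean in primary cultures for 34 of 34 genes among tetraploid samples, where 49% of all genes did, with a median of 2.29. Among diploid samples it was 29 of 34, where 55.6% of all genes did, with a median of 0.35. For mitosis and spindle genes the medians had opposite signs, 0.44 among tetraploid and -0.81 among diploid samples, with 45 and 4 of 50 genes higher in primary cultures.

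The spread among cultures of an origin is described without a test. Among primary cultures the median SD of a gene over the 3 arrays was 0.24, and 1240 genes had an SD above 1. Among lines and clones these were 0.14 and 1017 genes. Without diploid primary III and tetraploid line II, the medians over the remaining 2 arrays were 0.11 and 0.09, and 867 and 353 genes had an SD above 1. By chromosome, the median shift of a culture's genes from the primary cultures was past 0.2 (log2) for 1 of 20 chromosomes in tetraploid clone III and for 1 of 20 in diploid clone I. In tetraploid line II it ranged from -0.43 on chromosome 18 to 0.39 on chromosome 10, with 4 chromosomes past 0.2. Tetraploid primary I, set against the other primary cultures, ranged from -0.40 on chromosome 7 to 0.45 on the X chromosome, with 9 of 20 past 0.2. Set likewise against the other primary cultures, diploid primary II had 5 and diploid primary III had 4 past 0.2. Since a primary culture was set against 2 arrays and a line or clone against 3, these counts are not ranked between origins. These shifts were not tested.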

How the data were processed

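Biotin-labelled total RNA of 6 mouse marrow stromal cultures was run on Affymetrix arrays. Ploidy was assigned by DNA content and spectral karyotyping, and origin was read from the descriptions. The authors deposited log2 values per probe set, made with Partek and RMA, per the submitters' processing notes. The arrays' genome build is not stated in those sources. The precision of a group mean is limited by the number of arrays. The authors' deposited comparison table gave gene symbols only, and 6 of its per-sample columns were not used. Symbols were updated through the RefSeq table of GRCm38.p6: of 22349 symbols 19017 were current, 2382 matched a synonym and 950 were kept. Of the genes, 1988 had several probe sets, and 509 named probe sets held the same values as another.

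Origins were compared by lmFit and eBayes of limma 3.58.1 (R 4.3.3), two-sided, over all genes, without covariates or a filter, with Benjamini-Hochberg adjustment and a threshold of 0.05. It was tested on simulated arrays with independent normal variation, which did not imitate cultures that may be related. The origin difference within each ploidy came from a model with 1 mean per ploidy and origin, with 2 residual degrees of freedom. Named genes were up to 12 per direction of unadjusted p under 0.01, a 2-fold difference and no overlap, the 3 of smallest p in each list, and fixed senescence, sex-linked and marker genes. Genes given as values of a single culture, the neighbours of Cdkn2a and the motif were chosen after values were seen. A few genes that these rules took are not reported here, though counts and medians include them. The comparison and the lists were chosen with earlier results of these data known. Python 3.11.15 with pandas 2.3.3 and matplotlib 3.10.9 made summaries and figures.

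Repeat numbers were checked as pairs. Deviations from the group means of same-numbered cultures correlated at -0.21, -0.41 and -0.10. Each such pair joins a tetraploid and a diploid culture, so the check could not tell a lack of pairing from a ploidy difference.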

Additional observations from a re-analysis of the deposited data

Results flagged for a closer look

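The lists and genes of this section were picked for 1 pattern. In each, every tetraploid comparison of a primary culture with a line or clone went one way and every diploid comparison the other. Other results went the same way in both ploidies, such as Hspb6 at -1.97 and -1.66. How often so few cultures would show the pattern was not tested. Some met it narrowly. Tetraploid primary I read 6.562 against 6.566 in clone III for the TGF-beta and BMP list mean. It read 3.579 against 3.585 in line II for Dazl, and 8.87 against 8.81 in line II for the cholesterol list mean. Cdkn1a read 10.06 in tetraploid primary I, 9.91 in clone III and 6.25 in line II. The value given is the tetraploid origin difference minus the diploid one (log2). For the list means this difference was not tested, and for the genes limma called 0 of 22311 genes at an adjusted p under 0.05 on it.

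Thy1, a surface marker of stromal cells, had the largest value, 9.34, with origin differences of 5.70 among tetraploid and -3.63 among diploid samples. Cdkn1a gave 2.40 (1.98 and -0.42) and Mdm2, another p53 target, gave 2.25 (1.57 and -0.68). Sgce, an imprinted gene, gave 1.44 (0.19 and -1.25), H2-Eb1, an MHC class II gene, gave 0.78 (0.62 and -0.17), and Dazl, a germline gene near the floor of the scale, gave -0.24 (-0.0082 and 0.23).

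Among list means, mitosis and spindle genes gave 1.27 (0.49 and -0.78), p53 targets 1.14 (0.83 and -0.31), cholesterol synthesis 0.998 (0.90 and -0.10) and stromal markers 0.37 (0.19 and -0.18). The opposite order was seen for complement at -0.77 (-0.43 and 0.34), the senescence secretory list at -0.67 (-0.59 and 0.09), the insulin-like growth factor axis at -0.52 (-0.48 and 0.04), matrix glycoproteins and proteoglycans at -0.46 (-0.26 and 0.21), and TGF-beta and BMP at -0.34 (-0.18 and 0.16).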

How the results depend on the processing

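The count of 0 genes past the adjusted threshold held under all 18 alternatives (limma, with 308 to 1499 genes at an unadjusted p under 0.05). The smallest adjusted p was 0.0504, without diploid primary II. The count at an unadjusted p under 0.05 and 2-fold, 124 in the report, was 56 with an ordinary linear model, 218 with ploidy as a covariate, 311 at 1.5-fold and 87 to 474 when 1 culture was left out (474 without diploid primary II, 211 without tetraploid line II). Of the genes higher in primary cultures, 51 in the report, there were 30 with centred arrays, 79 with an intensity trend, 21 with an ordinary linear model, 77 with array weights, 101 with ploidy as a covariate, 114 at 1.5-fold and 44 to 175 when 1 culture was left out (175 without diploid primary II, 93 without tetraploid primary I). Of the genes lower, 73 in the report, there were 35 with an ordinary linear model, 117 with ploidy as a covariate, 197 at 1.5-fold and 43 to 299 when 1 culture was left out (299 without diploid primary II, 155 without tetraploid line II, 43 without diploid primary III). The cause was not tested. With the replicate block, the counts were 0 past the adjusted threshold (limma, 611 genes at an unadjusted p under 0.05) and 140 at an unadjusted p under 0.05 and 2-fold. The pairing check could not decide whether that block applies. The tetraploid origin difference had 3 genes past the adjusted threshold with an intensity trend, against 0. The distance between minus within origins ran from -0.59 to 0.94 when 1 culture was left out and changed sign without tetraploid primary I, at 0.16, and without diploid primary II, at 0.94. Sqle, at -0.70 in all 6 cultures, ran from -1.51 (without tetraploid primary I) to 0.04 (without tetraploid line II) and was 0.56 without that line and diploid primary III together, a pair left out after seeing the data. Of 360 list medians under alternatives 8 moved past the spread, in 5 of 36 lists: the MHC class I list was 0.78 without that pair, collagens were -0.30 without diploid primary III, Hippo targets 0.11 and chondrocyte genes -0.06 with quantile normalisation, chondrocyte genes -0.06 and germline genes -0.02 without diploid primary III, and these -0.03 and -0.0081 without that pair. The interferon counts, added after seeing the data, were 29 to 34 of 34. The tetraploid difference without tetraploid primary I and the diploid one without diploid clone I could not be fitted. With 3 cultures of mixed ploidy on each side, origin, donor and time in culture cannot be told apart.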

Other observations

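Runs of neighbouring genes were searched after values were seen, among genes above the median level, and are given as values without a test. A deviation is a gene's log2 value minus the median of the other 5 arrays, centred on each array, and the value of a run is the median over its genes in RefSeq order. In a run of 10 genes on chromosome 4 from Zdhhc21 to Haus6, diploid clone I stood at 2.19 and diploid primary II at 1.67, a line or clone and a primary culture together, while the other 4 arrays lay between -0.76 and 0.20. All 10 genes were above 0 in both. Tetraploid line II stood at 2.12 over 10 genes of chromosome 6 from Smyd5 to Tgfa and at 1.43 over 40 genes from Wdr54 to Aak1, of which 38 were above 0. Diploid primary II stood at 1.02 over 40 genes of chromosome 2 from Tgif2 to Stk4, with 37 above 0. Diploid primary III stood at 2.03 over 40 genes of chromosome 13 from Zkscan8 to H1f1, a stretch that includes histone genes. The strongest 40-gene run of tetraploid clone III was weaker, 0.54 on chromosome 4 from Zfp987 to Park7.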
